A study of Mus musculus with 10 samples.

Results

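The genes of cholesterol synthesis and of its feedback control by sterols were followed on 10 microarrays of the mouse ileum, the lower end of the small intestine. The 5 iPGC-1β and 5 wild-type arrays read total RNA of iPGC-1β mice and of their wild-type littermates, of the FVB/N background and aged 3 to 4 months. Whether each array holds RNA of a single animal is not labelled. The name iPGC-1β is known in this field for mice that overexpress the coactivator PGC-1β in the intestinal epithelium; the labels do not spell out the transgene, its promoter or the number of founder lines. The array's 1 probe for Ppargc1b, the gene of PGC-1β, read 7.70 ± 0.41 on the iPGC-1β arrays and 8.32 ± 0.22 on the wild-type arrays (log2 intensity, SD, n = 5 each), a difference of -0.61 ± 0.19 (SE; limma's adjusted p = 0.0452) whose call was kept under 13 of 24 alternatives. Which stretch of the transcript it reads is unknown here, so it does not check the genotype, and each direction below rests on the libraries as labelled. Of 27 genes named for a role in this pathway, 23 had a probe under that symbol in the table used here, with 34 probes in all. The expression of Hmgcs1, Mvk, Fdft1 and Npc1 was not analysed here. Probes of 21 of the 23 genes lay above background and were tested, among 9365 tested genes in all. The 2 probes of Ggps1, which encodes the enzyme that makes geranylgeranyl diphosphate, and the 2 probes of Mylip, which encodes a sterol-regulated ubiquitin ligase, were not above background on any array.

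Cholesterol is built from acetyl-CoA through mevalonate to farnesyl diphosphate, where other isoprenoids branch off, then to squalene, lanosterol and cholesterol. When membranes of the endoplasmic reticulum lose sterol, the escort protein SCAP carries the transcription factor SREBP-2 to the Golgi, where it is cleaved and released to switch on the enzymes of the whole route; when sterol returns, the INSIG proteins hold SCAP back. The small intestine is known as a major site of cholesterol synthesis, and its enterocytes also take up cholesterol from the diet and the bile.

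Transcripts of this pathway were lower in the iPGC-1β ileum in many of its steps, by modest amounts. Values are background-corrected, quantile-normalized log2 intensities, differences are iPGC-1β minus wild-type, and a gene was called at limma's adjusted p under 0.05 over all 9365 genes. Of the 21 tested members 7 were called lower: Mvd, Idi1, Fdps, Sqle, Hsd17b7, Ebp and Insig2. By the same limma test 0 were called higher, and at an unadjusted p under 0.05 there were 12 lower, 57.1%, and 1 higher, Dhcr7, against 1500 lower and 1427 higher of the 9365 genes. Over all tested genes 7.41% were called lower and 9.88% higher, so the share of members called lower, 33.3%, stood above that background. The difference was below 0 for 19 of the 21 members, against 55.8% of all tested genes, and its median was -0.38 over the members and -0.053 over all tested genes. All 5 iPGC-1β arrays lay below all 5 wild-type arrays for 5 members, 23.8% of those tested, against 5.62% of all genes, and above them for 0 members, against 8.66%. In RNA from a whole tissue, fewer cells of a type and less RNA per cell cannot be told apart.

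**Figure D1:**
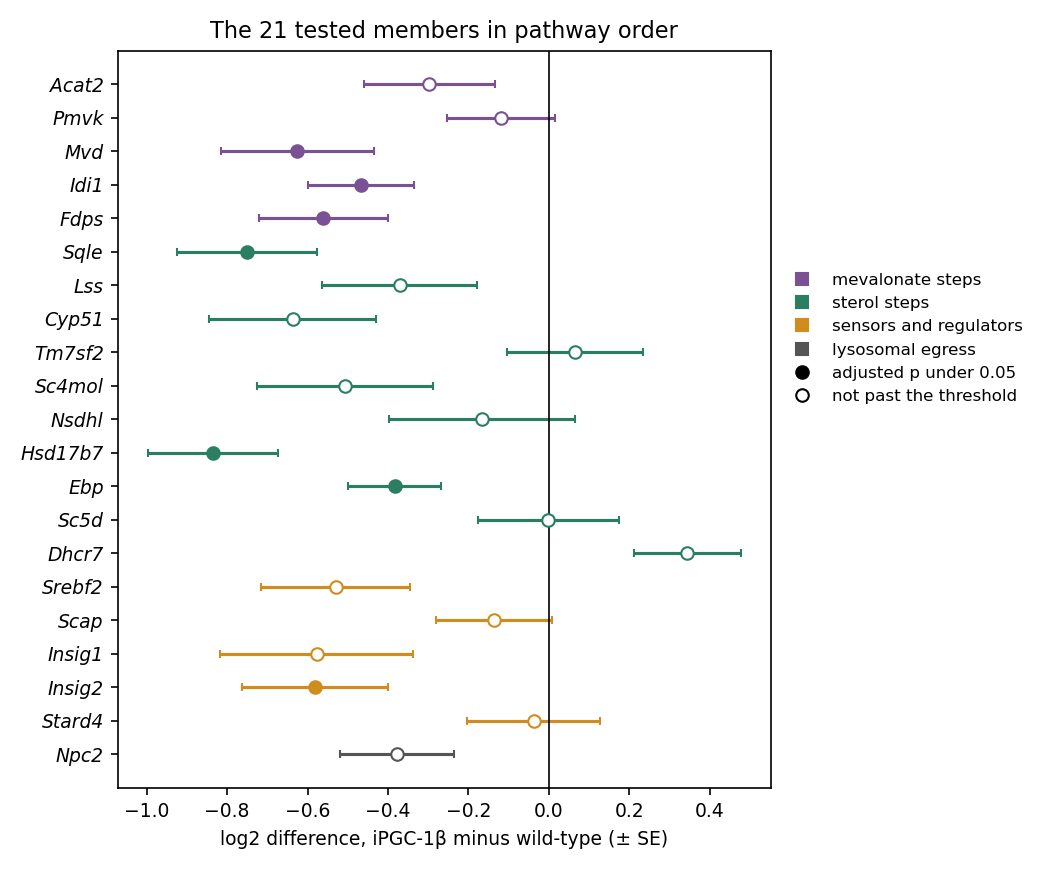
Log2 difference, iPGC-1β minus wild-type, with its standard error for each of the 21 tested members in pathway order, coloured by role; filled points passed an adjusted p under 0.05. All 7 filled points lie left of 0, between -0.83 and -0.38, and the open point farthest to the right is Dhcr7 at 0.34.

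The number of members called depended on single arrays. Without iPGC-1β replicate 3 or without iPGC-1β replicate 4 only Sqle and Hsd17b7 were called, 9.52% of members against 5.40% and 5.16% of all genes. There were 3 or 4 members called lower, 14.3% or 19.0%, without iPGC-1β replicate 5 or any 1 wild-type array. The share of all genes was 6.10% without iPGC-1β replicate 5 and 4.57% to 4.98% without wild-type replicate 1, 2, 3 or 4. Without wild-type replicate 5 it was 8.60%, against 19.0% of members. Without iPGC-1β replicate 2 there were 6 members, 28.6% against 8.41% of all genes. Without iPGC-1β replicate 1 there were 9, 42.9% against 6.70%. The median over the members was less dependent on single arrays and stayed between -0.45 and -0.34 whichever array was left out.

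Before the single genes, the regulatory stretch at their starts is of use, since SREBP-2 is known to act at promoters together with NF-Y, a factor that binds the CCAAT box. RefSeq windows of the GRCm38.p6 build, from 250 bases before to 50 bases after the annotated start, were matched for 22 of the 27 genes, some with several starts, giving 28 windows. These windows take in Hmgcs1, Mvk, Ggps1 and Mylip, which were not tested for expression. No window was matched for Fdps and Sqle, which were called lower. Motifs were searched on both strands. The NF-Y letters CCAAT stood in 20 of the 28 windows, 71.4%, against 37.4% of the 7755 windows of tested genes and 37.4% of all 32851 windows. The GC box letters GGGCGG stood in 82.1% of the members' windows, against 61.0% in tested genes and 35.7% in all windows. The core letters of the sterol regulatory element, CACNCCA, were found in 7 of the 28 windows, against 18.5% of those of tested genes and 18.4% of all windows, and the E-box letters CACGTG in 21.4%, against 9.90% in tested genes and 7.15% in all windows. Windows of genes with several starts are counted each, and a match of letters is not a bound site.

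**Figure D2:**
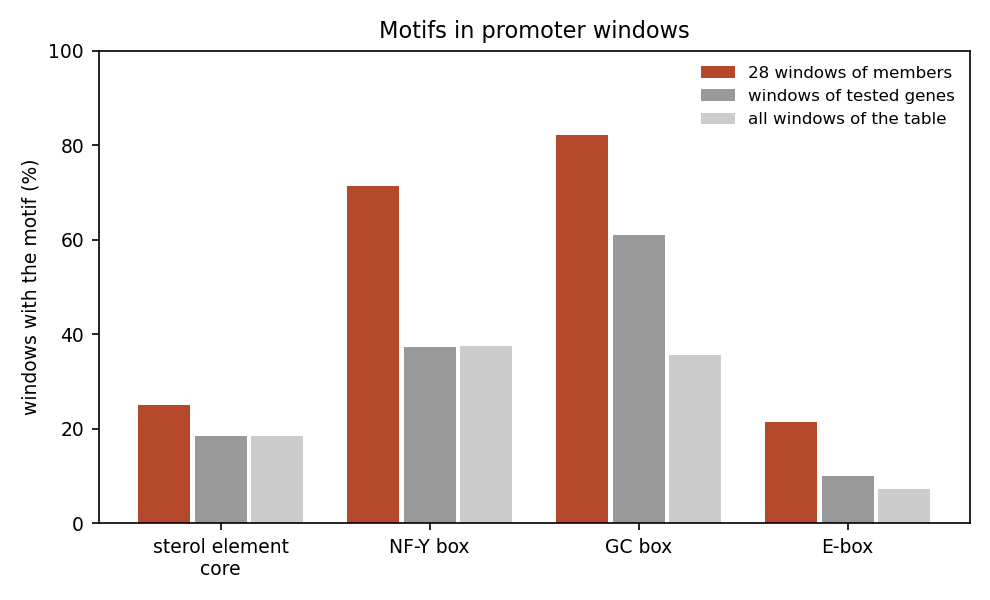
Share of promoter windows, in percent, that hold each motif on either strand, for the 28 windows of the members, the windows of tested genes and all windows of the table. Between members and tested genes the bars differ most for the NF-Y box, 71.4% against 37.4%, and least for the core of the sterol element.

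Early in the route, 3 of the 5 tested genes of the mevalonate steps were called lower and 0 higher by limma, against 7.41% and 9.88% of all genes. At an unadjusted p under 0.05 there were also 0 higher, and the median difference was -0.47. Mvd encodes mevalonate diphosphate decarboxylase, which makes the isoprene unit. Its log2 intensity was 8.07, 7.75, 7.36, 7.08 and 7.83 on the iPGC-1β arrays, against 8.35, 8.14, 8.57, 8.00 and 8.15 on the wild-type arrays. Only iPGC-1β replicate 1 reached into the wild-type range, and the difference was -0.63 ± 0.19 (SE). Its adjusted p by limma was 0.0393, and an exact permutation test, two-sided here and below, gave p = 0.0159. Idi1 encodes the isomerase that turns this unit into its reactive form. It read 6.72, 6.55, 6.37, 6.31 and 6.30 on the iPGC-1β arrays, against 6.77, 7.04, 6.78, 6.88 and 7.11 on the wild-type arrays. The groups did not overlap, though iPGC-1β replicate 1 lay close under the lowest wild-type array, and the difference was -0.47 ± 0.13 (SE; limma's adjusted p = 0.0290). Its exact permutation p was 0.00794, the smallest that 5 against 5 arrays can give. Without background correction the difference of Idi1 was -0.21, still called. Fdps encodes farnesyl diphosphate synthase, whose product feeds sterols, ubiquinone and protein prenylation alike. Its values were 11.25, 10.86, 10.62, 10.74 and 11.21 on the iPGC-1β arrays, against 11.45, 11.28, 11.49, 11.44 and 11.84 on the wild-type arrays. The ranges nearly touched without overlapping, and the difference was -0.56 ± 0.16 (SE; limma's adjusted p = 0.0301). The cytosolic thiolase gene Acat2 stood at -0.30 ± 0.16 (SE) and the phosphomevalonate kinase gene Pmvk at -0.12 ± 0.13 (SE), neither called. The promoter window of Idi1 is given with its CCAAT boxes in capitals, here both read on the opposite strand:
Idi1, chr13:8885356-8885655, plus strand: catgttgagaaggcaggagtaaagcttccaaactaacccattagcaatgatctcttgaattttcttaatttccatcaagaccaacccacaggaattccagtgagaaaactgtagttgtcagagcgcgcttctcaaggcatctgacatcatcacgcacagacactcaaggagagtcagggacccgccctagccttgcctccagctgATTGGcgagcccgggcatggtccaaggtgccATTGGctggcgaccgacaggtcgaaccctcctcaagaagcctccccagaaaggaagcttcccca

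**Figure D3:**
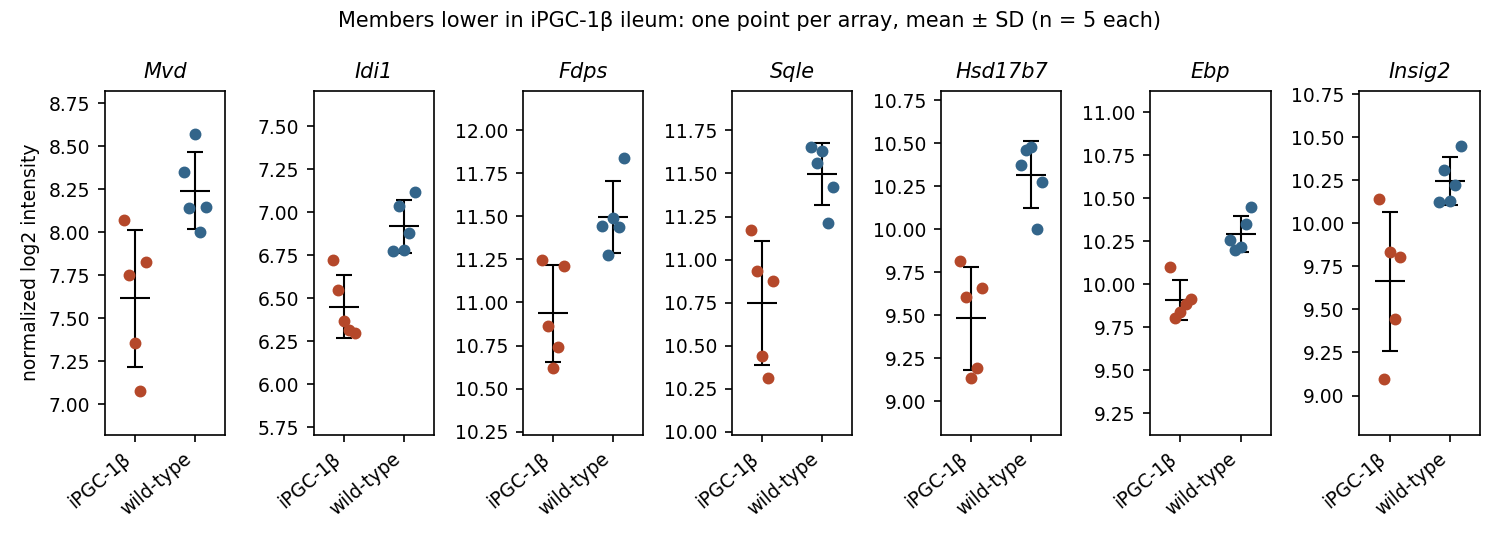
Normalized log2 intensity on each array for the 7 members called lower, with iPGC-1β arrays left and wild-type arrays right in each panel, mean ± SD over 5 arrays; every panel spans 2 log2 units. The groups are apart in Idi1, Fdps, Sqle, Hsd17b7 and Ebp, while the highest iPGC-1β array reaches the wild-type range in Mvd and Insig2.

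Among the sterol steps, 3 of 10 tested genes were called lower and 0 higher by limma, against 7.41% and 9.88% of all genes. At an unadjusted p under 0.05 there was 1 higher, and the median difference was -0.38. Hsd17b7 encodes a ketoreductase that helps strip methyl groups from the sterol nucleus, and it had the largest difference of all members. It read 9.81, 9.61, 9.14, 9.20 and 9.66 on the iPGC-1β arrays, against 10.37, 10.46, 10.48, 10.00 and 10.28 on the wild-type arrays. The means were 9.48 ± 0.30 in the iPGC-1β group and 10.32 ± 0.19 in the wild-type group (SD, n = 5 each), a 1.78-fold lower level in the iPGC-1β ileum, with a difference of -0.83 ± 0.16 (SE; limma's adjusted p = 0.00353; exact permutation p = 0.00794). Before any correction, the deposited average signal of Hsd17b7 ran from 631.6 to 949.4 on the iPGC-1β arrays, against 1057 to 1890.3 on the wild-type arrays. Its promoter window holds CCAAT boxes at 3 places, all on the opposite strand and in capitals here:
Hsd17b7, chr1:169969156-169969455, minus strand: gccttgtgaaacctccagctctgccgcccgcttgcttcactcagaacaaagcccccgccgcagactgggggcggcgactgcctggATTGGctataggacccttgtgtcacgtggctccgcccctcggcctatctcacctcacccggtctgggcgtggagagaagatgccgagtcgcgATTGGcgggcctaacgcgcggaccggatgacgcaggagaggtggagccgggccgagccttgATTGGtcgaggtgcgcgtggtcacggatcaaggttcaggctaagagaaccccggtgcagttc

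Sqle encodes squalene epoxidase, known as a rate-limiting enzyme of the sterol branch. It read 11.17, 10.93, 10.44, 10.31 and 10.88 on the iPGC-1β arrays, against 11.66, 11.56, 11.63, 11.22 and 11.42 on the wild-type arrays. The groups did not overlap, the difference was -0.75 ± 0.17 (SE), 1.68-fold lower in the iPGC-1β ileum, and limma's adjusted p was 0.0106. A dimmer Sqle probe differed by -0.60, with limma's adjusted p = 0.0860 over all 12349 probes above background. Ebp encodes the sterol isomerase that moves a double bond of the ring. Its values were 10.10, 9.80, 9.84, 9.89 and 9.91 on the iPGC-1β arrays, against 10.26, 10.20, 10.22, 10.35 and 10.45 on the wild-type arrays. The groups were apart although the difference was small, -0.38 ± 0.12 (SE), with limma's adjusted p = 0.0386. The calls of Hsd17b7 and Sqle were kept under all 24 alternative settings, those of Idi1, Fdps and Mvd under 18, 17 and 16, and that of Ebp under 12.

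The other sterol enzymes did not pass the test. Cyp51, the lanosterol demethylase gene, came closest, at 9.09 ± 0.51 against 9.73 ± 0.07 (iPGC-1β and wild-type, SD, n = 5 each), with limma's adjusted p = 0.0518 and a call under 8 of 24 alternatives. Its 5 wild-type arrays lay within 9.65 to 9.82, while the iPGC-1β arrays ran from 8.62 in replicate 2 to 9.86 in replicate 1, above every wild-type array. Sc4mol, now Msmo1, the methylsterol oxidase gene, differed by -0.51 ± 0.22 (SE), and the lanosterol synthase gene Lss by -0.37 ± 0.19 (SE). The brightest of 4 Nsdhl probes, for a dehydrogenase of the same demethylation, differed by -0.17, and the other probes by -0.29, -0.25 and -0.36. The reductase gene Tm7sf2 stood at 0.065 ± 0.17 (SE) and the desaturase gene Sc5d at -0.0013 ± 0.17 (SE). Dhcr7, a reductase of the closing steps, was the only member with a positive difference beyond its standard error, at 8.11 ± 0.17 on the iPGC-1β arrays and 7.77 ± 0.17 on the wild-type arrays (SD, n = 5 each), a difference of 0.34 ± 0.13 (SE; limma's adjusted p = 0.0959; exact permutation p = 0.0159).

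Of the 5 tested genes of sterol sensing and its regulation, 1 was called lower and 0 higher by limma, against 7.41% and 9.88% of all genes. At an unadjusted p under 0.05 there were also 0 higher. All 5 differences were below 0, against 55.8% of all genes. Insig2 encodes a protein that retains SCAP in the endoplasmic reticulum. It read 10.14, 9.10, 9.83, 9.44 and 9.81 on the iPGC-1β arrays, against 10.12, 10.31, 10.13, 10.23 and 10.45 on the wild-type arrays. Replicate 1 of the iPGC-1β group lay among the wild-type arrays, and the difference was -0.58 ± 0.18 (SE), with limma's adjusted p = 0.0438, a call kept under 10 of 24 alternatives. A second Insig2 probe above background differed by -0.30 (limma's adjusted p = 0.329 over all probes). Insig1, the paralog that SREBP-2 itself induces, read 8.33, 7.61, 7.56, 7.08 and 8.05 on the iPGC-1β arrays, against 8.31, 8.86, 8.35, 7.79 and 8.20 on the wild-type arrays. The groups overlapped, the difference was as large as that of Insig2, -0.58 ± 0.24 (SE), and it was not called (limma's adjusted p = 0.120). Dimmer Insig1 probes above background differed by -0.34 and -0.36 (limma's adjusted p = 0.311 and 0.390 over all probes). Srebf2, the gene of SREBP-2, read 8.63, 9.05, 8.31, 8.13 and 8.52 on the iPGC-1β arrays, against 9.13, 9.12, 9.36, 8.62 and 9.07 on the wild-type arrays. The groups overlapped through wild-type replicate 4, which lay below iPGC-1β replicates 1 and 2, and the difference of -0.53 ± 0.19 (SE; limma's adjusted p = 0.0690) was called under 6 of 24 alternatives. Scap differed by -0.14 ± 0.14 (SE) and Stard4, the gene of a cytosolic sterol carrier, by -0.038 ± 0.17 (SE). Npc2, the gene of the lysosomal protein that takes up cholesterol released from lipoproteins, differed by -0.38 ± 0.14 (SE; limma's adjusted p = 0.0862). Insig2 has further annotated starts, whose windows hold 0 CCAAT boxes. Of these, the window at chr1:121327975-121328274 holds CACNCCA at 1 place and that at chr1:121327629-121327928 at 0. In the windows of Srebf2 and of an upstream start of Insig2, capitals mark CACNCCA and CCAAT on either strand, and in Insig2 a pair of them overlaps:
Srebf2, chr15:82147019-82147318, plus strand: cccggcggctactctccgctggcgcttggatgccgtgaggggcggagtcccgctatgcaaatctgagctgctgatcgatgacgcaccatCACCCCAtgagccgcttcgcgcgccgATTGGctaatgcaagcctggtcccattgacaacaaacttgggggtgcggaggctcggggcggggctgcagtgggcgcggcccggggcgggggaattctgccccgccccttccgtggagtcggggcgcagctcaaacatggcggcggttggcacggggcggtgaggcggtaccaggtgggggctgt
Insig2, chr1:121332540-121332839, minus strand: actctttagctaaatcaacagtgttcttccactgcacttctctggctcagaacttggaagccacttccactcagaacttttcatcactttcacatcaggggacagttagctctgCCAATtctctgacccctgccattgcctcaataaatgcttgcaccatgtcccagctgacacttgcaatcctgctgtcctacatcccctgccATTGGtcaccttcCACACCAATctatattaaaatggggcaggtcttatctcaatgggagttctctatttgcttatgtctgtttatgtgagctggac

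Where a gene had more than 1 probe above background, the probes pointed the same way: all 11 such probes, of Sqle, Nsdhl, Insig1 and Insig2, differed below 0. Of all 28 member probes above background 26 did so, those of Tm7sf2 and Dhcr7 being the others. The remaining 6 of the 34 probes were not above background on any array, among them 1 of Insig1 and 1 of Insig2.

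The members varied more between iPGC-1β arrays than between wild-type arrays, and they did so together. The SD of the log2 values was larger in the iPGC-1β group for 20 of 21 members, Stard4 being the exception, against 59.6% of all tested genes. The median SD of the members was 0.35 in the iPGC-1β group and 0.18 in the wild-type group, against 0.28 and 0.25 over all genes. On iPGC-1β replicate 1, 19 of 21 members lay above the mean of their own group, and on iPGC-1β replicate 4 none (0 of 21) did. Of all tested genes 46.6% and 50.8% lay above the group mean on these 2 arrays. Replicate 5 of the iPGC-1β group had 16 members above the group mean, replicate 2 had 10 and replicate 3 had 7. Among wild-type arrays replicate 4 stood lowest, with 3 members above the group mean, and the others had 12 to 14. Set against the range of the wild-type arrays, iPGC-1β replicate 1 lay below it for 7 members, within it for 10 and above it for 4 (Pmvk, Cyp51, Tm7sf2 and Dhcr7). Below that range lay 13 members on replicate 2, 15 on replicate 3, 17 on replicate 4 and 10 on replicate 5 of the iPGC-1β group. Of all tested genes 21.2% to 31.9% lay below it on these 5 arrays.

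**Figure D4:**
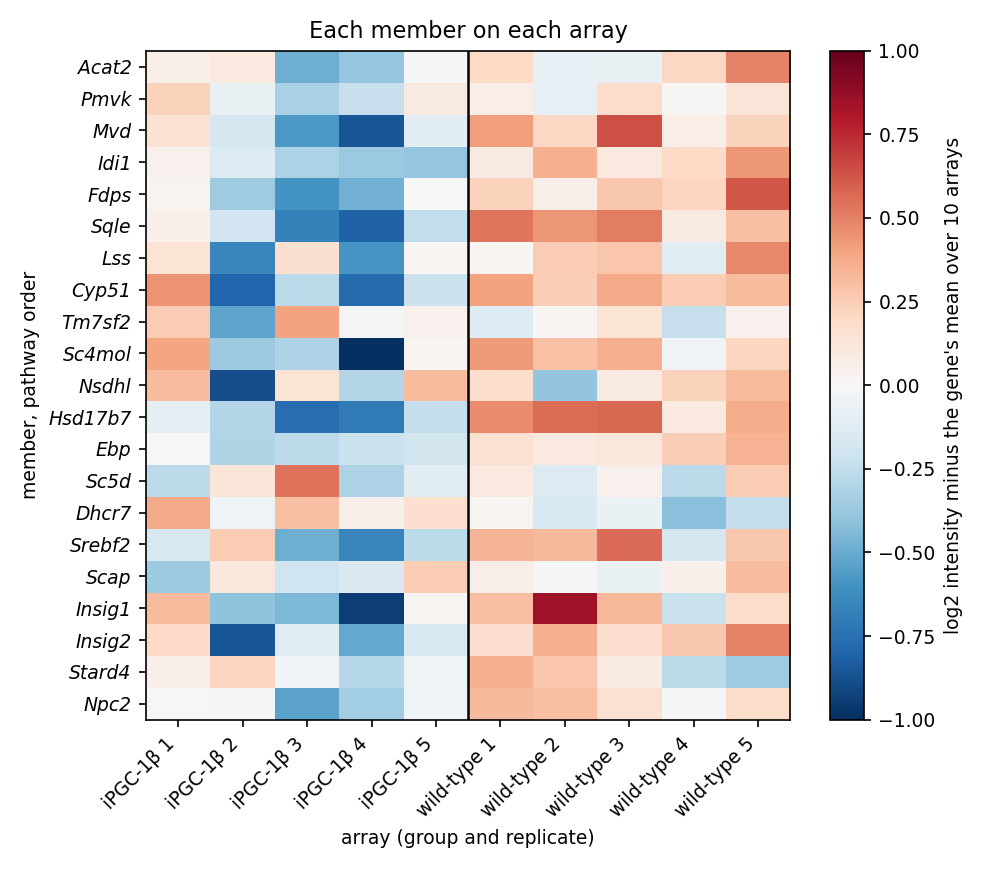
Log2 intensity of each tested member on each array, minus the gene's mean over the 10 arrays, with members in pathway order down the page and iPGC-1β arrays left of the line. Blue fields gather on iPGC-1β replicates 2, 3 and 4, iPGC-1β replicate 1 is mostly pale or red, and Dhcr7 runs against the others.

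Markers of absorptive enterocytes, the cells that line the villi, moved with the group as well. Of 17 tested enterocyte markers of a list of 24, 8 were called lower and 0 higher by limma, against 7.41% and 9.88% of all genes. At an unadjusted p under 0.05 there were 12 lower and 0 higher, against 1500 lower and 1427 higher of the 9365 genes. The share called lower was larger among these markers than among the members, 33.3%. The markers' summed linear intensity ran from 84762 to 121248 on the iPGC-1β arrays, against 121959 to 151178 on the wild-type arrays. Their median difference was -0.63, and Fabp6, the ileal bile acid binding protein gene, was the only tested marker with a difference above 0. Fabp6 averaged 14.64 and 14.55 (log2 intensity, iPGC-1β and wild-type, limma's adjusted p = 0.652). Probes of Fabp1 and Fabp2 were not above background. Within the groups, the order of the 5 arrays by marker mean was not that by enzyme mean, and a relation between these means was not tested. Wild-type replicate 5 had the lowest wild-type marker mean, 11.39, and the highest mean of the 15 tested enzymes, 8.89. Replicate 4 of the iPGC-1β group had a marker mean of 11.41, above wild-type replicate 5, and the lowest enzyme mean of all arrays, 8.14. With the enterocyte mean as a covariate, 5 members were called lower, Acat2, Idi1, Fdps, Sqle and Hsd17b7, 23.8% against 4.86% of all genes. In that fit the members' median difference was -0.62. Since the enterocyte mean itself differs between the groups, such a fit shares the group effect with it. The part of enterocyte content in the result was not tested otherwise. By limma 0 markers were called of proliferating and crypt cells (16 tested), smooth muscle (8), T cells (6), B and plasma cells (5), macrophages (9), goblet cells (5) and Paneth cells (7). At an unadjusted p under 0.05 these lists held 3, 0, 1, 0, 0, 0 and 1 genes in that order. T cell markers had a median difference of -0.71 and a summed intensity of 279.1 to 1524 on the iPGC-1β arrays, against 1143 to 2307 on the wild-type arrays, and their part in the result was not tested. As a check on the tissue, 2 of 5 hepatocyte markers, Alb and Fgb, were not above background. The 3 others summed to 103.4 to 264.2 on the iPGC-1β arrays, against 111.4 to 1130 on the wild-type arrays, with 0 called by limma and 1 lower at an unadjusted p under 0.05, and their part in the result was not tested. The gene Vil1, for the brush border protein villin, averaged 13.22 on the iPGC-1β arrays and 13.66 on the wild-type arrays (log2 intensity).

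**Figure D5:**
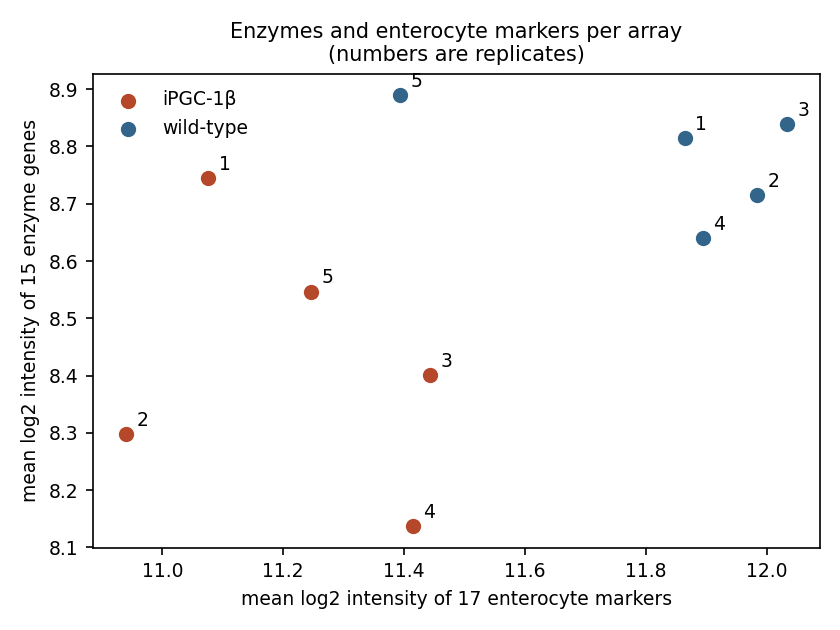
Mean log2 intensity of the 15 tested enzyme genes against the mean of the 17 enterocyte markers, each point 1 array, numbered by replicate within its group. Wild-type replicate 5 has the highest enzyme mean, 8.89, at a marker mean of 11.39, beside iPGC-1β replicate 4 with the lowest, 8.14, at 11.41.

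Other genes tied to SREBP or to sterol traffic moved unevenly. Of 13 tested genes of a wider SREBP list of 17, which takes in fatty acid genes, 2 were called lower and 1 higher, 15.4% and 7.69% against 7.41% and 9.88% of all genes, with a median difference of -0.17. The desaturase gene Fads1 differed by -0.56 ± 0.16 (SE; limma's adjusted p = 0.0344), a call lost in 8 of the 10 fits that left out 1 array. Acss2, which makes acetyl-CoA from acetate and is also known as a SREBP target, went the other way, at 9.69 ± 0.16 on the iPGC-1β arrays and 9.12 ± 0.21 on the wild-type arrays (SD, n = 5 each), a difference of 0.57 ± 0.14 (SE; limma's adjusted p = 0.0127; 0.0525 with the enterocyte covariate).

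Of 15 tested genes of sterol uptake, export, esterification and their LXR regulators, from a list of 22, 1 was called lower and 2 higher, 6.67% and 13.3% against 7.41% and 9.88% of all genes. Soat2, which encodes the enzyme that esterifies cholesterol for chylomicrons, stood at 10.61 ± 0.59 on the iPGC-1β arrays and 11.84 ± 0.34 on the wild-type arrays (SD, n = 5 each), a difference of -1.23 ± 0.26 (SE; limma's adjusted p = 0.00642). With the enterocyte covariate it was -0.75 and no longer called (limma's adjusted p = 0.294). Nr1h3, the gene of the oxysterol receptor LXRα, was higher, at 10.05 ± 0.13 on the iPGC-1β arrays and 9.45 ± 0.05 on the wild-type arrays (SD, n = 5 each), with limma's adjusted p = 0.00290. The oxysterol-binding protein gene Osbpl2 was called higher at 0.49 ± 0.15 (SE; limma's adjusted p = 0.0473), a call kept under 12 of 24 alternatives and lost in 8 of the 10 fits that left out 1 array. Abcg5, a transporter subunit gene of sterol export, differed by -0.55 ± 0.21 (SE) and was not called.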

How the data were processed

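Illumina arrays read biotin-labelled total RNA of 10 ileum samples, 5 of them iPGC-1β and 5 wild-type by the genotype label. Per the file headers, the deposited table holds, for 25697 probes and each array, the average signal (a linear intensity) and a detection p-value. The submitters' processing notes name GenomeStudio, without a version. A further table holds the authors' processed intensity values, made in a way not given in the sources used here; all 10 arrays share a median of 141.7. Every column was matched to its sample by title or accession, and 0 sample columns were left unused. Replicates were numbered within a group in accession order, only as names.

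Intensities were corrected by normexp with an offset of 16, quantile-normalized and log2-transformed (neqc, limma 3.58.1, R 4.3.3). Probes with a detection p under 0.05 on at least 5 arrays were kept (12349), and the brightest kept probe stood for a symbol. Groups were compared with limma (lmFit, eBayes, no covariates), adjusted by Benjamini-Hochberg over 9365 genes, and single genes also by a two-sided exact permutation test over 252 relabelings. The fit was tested on simulated data.

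Between 12370 and 12771 probes per array were above background. Nothing labels litter, slide or pooling, so p-values reflect only the spread between arrays, which may be technical, and 5 arrays per group limit the precision. Members and lists were chosen with earlier results of these data known. Named are all members, Ppargc1b and, of each further list, up to 4 genes with the smallest p; some are not reported here, and the markers Fabp1, Fabp2, Fabp6, Vil1, Alb and Fgb were named after their values were seen. Alternatives were other background, normalization, filter, probe, threshold and variance choices, the authors' values, arrays left out, and marker means as covariates.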

Additional observations from a re-analysis of the deposited data

How the results depend on the processing

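The median difference of the members stayed below 0 under all 24 alternatives, and Hsd17b7 and Sqle kept their calls under each. The count of members called lower, 7 in the analysis reported, lay between 5 and 10 under the other processing choices, except 11 with array weights. The share of all genes called lower moved as well. It was 3.03% with no filter on dim probes, against 21.7% of members, and 11.5% at an adjusted p under 0.10, against 47.6%. With array weights it was 11.8%, against 52.4% of members. An adjusted p under 0.10 also called 1 member, Dhcr7, higher. Leaving out an array in turn gave 2 to 9 members lower and 421 to 792 genes lower in all. Without wild-type replicate 5 and iPGC-1β replicate 3 together 2 members were lower, 9.52% against 8.64% of all genes. In that fit 779 genes were lower in all, against 694 in the analysis reported, and the reason for the lower count of members was not tested. Fewer samples enter all these fits. Genes called lower numbered 1077 at an adjusted p under 0.10 and 1105 with array weights. With the enterocyte covariate 455 genes were lower and 576 higher, and the members' median was -0.62; the cause was not tested. Signs changed only in genes that were not called. Sc5d was at 0.0039 without background correction and 0.0035 in the authors' processed values, and between -0.14 and 0.076 when an array was left out. In those fits Nsdhl ranged between -0.28 and 0.035, Tm7sf2 between -0.029 and 0.21 and Stard4 between -0.13 and 0.045. Tm7sf2 was at -0.0094 without both named arrays. With the enterocyte covariate Stard4 was at 0.074, Abcg5 at 0.30 and Trit1 at -0.068. No paired analysis was possible because the labels number the 10 samples in 1 run, with no number shared between the groups.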

Other observations

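Genes that use the isoprenoid side of the pathway did not share the direction of the enzymes that make its precursor. A list of 15 genes for protein prenylation, dolichol, ubiquinone side chains and transfer RNA isopentenylation had 12 tested genes. By limma 3 of these were called higher, 25%, against 9.88% of all genes, and 0 lower, against 7.41%. At an unadjusted p under 0.05 there were also 0 lower. The difference was above 0 for 11 of the 12, against 4142 of all 9365 tested genes. Its median was 0.23, against -0.053 over all tested genes. Pdss1, which encodes a subunit of the synthase for the ubiquinone tail, stood at 9.83 ± 0.14 on the iPGC-1β arrays and 9.05 ± 0.17 on the wild-type arrays (SD, n = 5 each), with limma's adjusted p = 0.00119. Rce1, the gene of the protease that trims prenylated proteins, differed by 0.55 ± 0.12 (SE; limma's adjusted p = 0.00653) and Rabggtb, of the transferase that prenylates Rab proteins, by 0.46 ± 0.12 (SE; limma's adjusted p = 0.0209). In these 3 of the 12 genes all iPGC-1β arrays lay above all wild-type arrays, against 8.66% of all tested genes. Trit1, the transfer RNA isopentenyl transferase gene, differed by 0.30 ± 0.15 (SE) and was not called. The calls of Pdss1 and Rce1 were lost with the enterocyte covariate (limma's adjusted p = 0.0897 and 0.0674), that of Rabggtb with it (0.233) and also under median centring and without wild-type replicate 1 or 3. Members of this list were chosen for their role, and the difference between this list and the enzymes was not tested.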
